A study of Mus musculus and synthetic RNA with 74 samples.

Results

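The protein arginine methyltransferases are enzymes that take a methyl group from S-adenosylmethionine (SAM) and place it on arginine side chains of histones, splicing proteins and ribosomal proteins. Type I enzymes (PRMT1, PRMT2, PRMT3, PRMT6 and CARM1) make asymmetric dimethylarginine, the type II enzyme PRMT5 makes symmetric dimethylarginine together with its obligate partner WDR77 (also called MEP50), and the type III enzyme PRMT7 makes monomethylarginine. Symmetric methylation of the Sm proteins by PRMT5 is an early step in building the spliceosomal snRNPs, and mouse embryos without PRMT5 or PRMT1 are known to die early in development. The genes described here are *Prmt1*, *Prmt2*, *Prmt3*, *Prmt5*, *Prmt6*, *Prmt7*, *Carm1* and *Wdr77*, chosen by name as SAM-dependent enzymes (with the partner of PRMT5) that act on Sm and other splicing proteins. All 8 were found, among 20330 genes listed for E2.5 embryos and 21199 listed for E3.5 embryos.

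The study examined METTL16, an RNA methyltransferase that writes N6-methyladenosine (m6A). Single mouse embryos were sequenced, from crosses of heterozygous *Mettl16* parents all of 1 line with a cassette of stop codons in exon 3, made with Cas9 in B6D2F1/J zygotes and bred with C57BL/6JRj mice. There were 31 morulae at E2.5, of which 12 were KO, 14 HET and 5 WT, and 39 blastocysts at E3.5, of which 12 were KO, 9 HET and 18 WT, with genotypes read from the *Mettl16* reads of each embryo. A second experiment incubated human METTL16 with a library of 30-nt RNAs that share a central nonamer, and compared 2 m6A immunoprecipitates (m6A-IP) with the 2 input samples of the same reactions.

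For the embryos, the values used here are the authors' means over all embryos of a stage, with the 3 genotypes pooled. They come with no SD and no value per embryo, so that no genotype difference, replicate error or test between stages is given, and every difference between the stages below is a description. KO embryos made up 38.7% of the E2.5 mean and 30.8% of the E3.5 mean, and WT embryos 16.1% and 46.2%, so stage and genotype mix cannot be told apart, nor can stage and any batch. In whole embryos, fewer cells of a type and less RNA per cell cannot be told apart either. The pooled mean of *Mettl16* itself was 778 normalized counts at E2.5 and 669 at E3.5, which cannot check the genotype labels. The stage labels were checked with markers. Of 6 trophectoderm markers, 5 had at least 2-fold larger shares at E3.5, among them *Krt8* at 27.6 and 1136 CPM (the share of a gene in the summed means of its stage, set to a total of 1000000) and *Cdx2* at 7.27 and 71.5 CPM, while *Tfap2c* was at 224 and 68.1 CPM. Markers of the inner cell mass were mixed: of 3 epiblast markers *Nanog* (23.4 and 153 CPM) and *Sox2* had larger shares at E3.5 and *Pou5f1* (383 and 130 CPM) a smaller one, and of 3 primitive endoderm markers *Gata4* (53.8 and 9.32 CPM) and *Gata6* (152 and 135 CPM) had smaller shares and *Sox17* a larger one. All 4 oocyte markers had smaller shares at E3.5, with a summed level of 86.7 CPM at E2.5 and 4.89 CPM at E3.5. Blood and cumulus or granulosa markers had means of at most 1.34 normalized counts.

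Sequences were examined first, because METTL16 is known to methylate the adenosine at position 4 of the nonamer UACAGAGAA in *Mat2a* mRNA and U6 snRNA. The nonamer, spelled in these letters and searched on the strand of the gene in the mouse genome GRCm38.p6, occurred in 4 of the 8 genes, against 35.7% of 24466 genes. Per length, the 8 genes held 2.18 matches per 100 kb and all genes 2.08, so that the density of matches was close to that of all genes. The antisense strand of the same genes held it in 5 of 8 (40.2% of all genes). In spliced transcripts the nonamer was present in 1 of the 8 genes, *Wdr77*, against 3.29% of all genes. *Prmt1*, *Prmt2*, *Prmt5* and *Prmt6* held no match on the sense strand. The 5 matches are printed below as the RNA of a 30-nt window with the nonamer at positions 12 to 20, its place in the in vitro library, so that each can be set against that experiment. Capitals mark the nonamer, and all 5 lie on the plus strand.
*Wdr77* exon 10: acauggauuguUACAGAGAAaucugucauu
*Prmt3* intron 13: acagacuuguuUACAGAGAAuacagguucu
*Prmt3* intron 15: uuucuuaaugaUACAGAGAAaaggcugggu
*Prmt7* intron 4: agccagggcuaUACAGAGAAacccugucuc
*Carm1* intron 4: cuuccccuuccUACAGAGAAuacuuuugcu

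The *Wdr77* window, chr3:105968018-105968047, lies in the 3′ UTR of the last exon, with the nonamer starting 707 nt after the end of the coding sequence. The *Prmt3* windows are at chr7:49832889-49832918 and chr7:49856532-49856561, the *Prmt7* window at chr8:106225578-106225607, in sequence masked as a repeat over its whole length, and the *Carm1* window at chr9:21575820-21575849. These 4 are intronic. RNAfold placed the nonamer adenosine (position 15) in a stem in the *Wdr77* window (minimum free energy -4.4 kcal/mol) and in the *Carm1* window (-0.5 kcal/mol). It lay in a hairpin loop in *Prmt3* intron 13 (-5 kcal/mol), *Prmt3* intron 15 (-2 kcal/mol) and *Prmt7* intron 4 (-6.3 kcal/mol). In none of the 5 windows was it in a bulge.

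The in vitro experiment listed 36835 predicted structures, each with a value per library that sums all RNAs folding to that structure. A value below therefore belongs to the shape of a window and not to RNA of the gene itself. By limma on log2(value + 5), with Benjamini-Hochberg adjustment over all structures and a threshold of 0.1, 12.5% of structures were enriched in m6A-IP and 27.2% were depleted (4621 and 10036 structures). When each library was scaled to its total instead, the split was 8299 enriched and 9130 depleted. Over all structures the log2 fold change had a median of -0.27 as normalized by the authors and of -0.06 with library totals. The m6A-IP library of reaction 12 was coarse: its values came in steps of 6.93, against steps of 0.459 to 0.585 in the other 3 libraries.

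By this fit none of the 5 structures was enriched, and 4 were depleted. The structure of the *Prmt3* intron 13 window had 1058 and 1077 normalized reads in the inputs of reactions 11 and 12, and 349 and 305 in the m6A-IP libraries. The m6A-IP values lay well below both inputs, a log2 fold change of -1.69 (SE 0.15, limma adjusted p = 0.0137). The call held under every alternative that kept all libraries. With 1 library left out, the log2 fold change lay between -1.79 and -1.60. The structure of *Prmt3* intron 15 had 2311 and 2298 normalized reads in the inputs and 1300 and 1081 in m6A-IP, a log2 fold change of -0.96 (SE 0.16, limma adjusted p = 0.0179). That of *Wdr77* exon 10 had 4316 and 4268 in the inputs and 2567 and 1934 in m6A-IP, a log2 fold change of -0.94 (SE 0.19, limma adjusted p = 0.0248). The structure of *Prmt7* intron 4 had 331 and 383 in the inputs and 263 and 236 in m6A-IP, a log2 fold change of -0.51 (SE 0.17, limma adjusted p = 0.0701). In these 4 structures the input and m6A-IP values did not overlap. The share of all structures without such overlap was not counted, so this is a description only.

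Calls for 3 of these structures rested on both inputs. Without the input of reaction 11 or of reaction 12, the limma adjusted p was 0.307 or 0.299 for *Wdr77* exon 10, 0.261 or 0.258 for *Prmt3* intron 15, and 0.475 or 0.663 for *Prmt7* intron 4, with log2 fold changes between -0.96 and -0.41. The *Prmt7* call was also lost with the reaction number as a block, which pairs each m6A-IP library with its own input and left the log2 fold change at -0.51 (limma adjusted p = 0.112). With library totals it was lost at a log2 fold change of -0.28 (limma adjusted p = 0.118). The structure of *Carm1* intron 4 was abundant, with 21870 and 21686 normalized reads in the inputs and 26394 and 19926 in m6A-IP. Here the m6A-IP libraries lay on either side of the inputs, with a log2 fold change of 0.07 (SE 0.23, limma adjusted p = 0.823). It was called enriched with library totals (log2 fold change 0.31, limma adjusted p = 0.000449). When 1 m6A-IP library was left out, the log2 fold change was -0.13 without that of reaction 11 and 0.28 without that of reaction 12. The lone m6A-IP library then gives no spread of its own group, so no call is given.

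**Figure D1:**
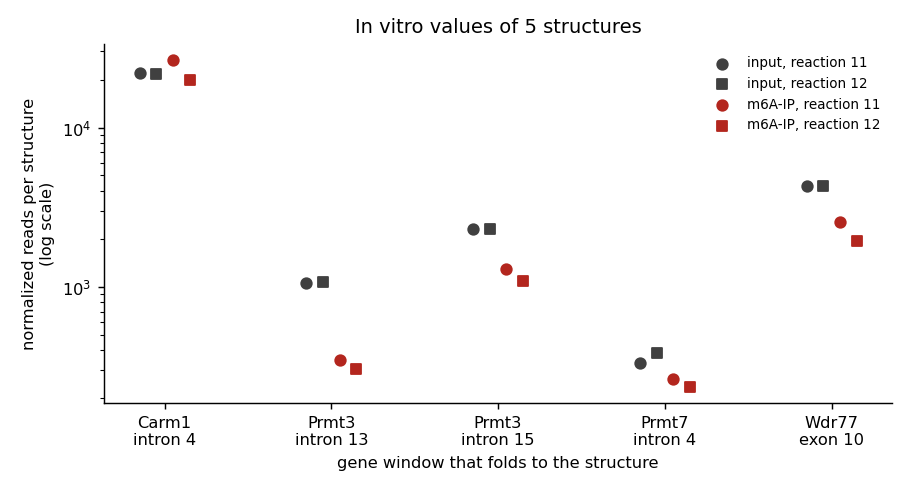
Normalized reads (log scale) of the 5 structures to which windows of *Carm1*, *Prmt3*, *Prmt7* and *Wdr77* fold, in 2 input libraries (dark) and 2 m6A-IP libraries (red), with circles for reaction 11 and squares for reaction 12. Both m6A-IP values lie below both inputs in 4 structures, and how often this holds over all structures was not counted. For *Carm1* intron 4 the m6A-IP values lie at 26394 and 19926 on either side of inputs near 21870.

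In the embryos, the gene for the type II enzyme and that for its partner stood far above the other 6 genes. *Prmt5* was at 351.5 CPM at E2.5 and 175 CPM at E3.5 (8280 and 4743 normalized counts). *Wdr77* was at 299 and 214 CPM (7051 and 5802 normalized counts). Both ranked at or above the 94.0th percentile of genes with a mean of at least 1 normalized count at each stage. Together they took 78.6% of the summed level of the 8 genes at E2.5 and 72.8% at E3.5. Levels per kb of transcript allow a rough comparison between genes, which depends on the measure. Salmon means were divided by the length of the longest protein-coding GENCODE transcript of a gene, and summed exons by the length of those exons. Per kb, *Prmt5* was 1.61-fold above *Wdr77* at E2.5 and 1.12-fold above it at E3.5 in Salmon means. From summed exons the ratios were 1.66 and 1.15. Against *Prmt1*, *Prmt5* was 13.1-fold higher at E2.5 in Salmon means per kb but 7.45-fold higher in summed exons per kb.

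On mm10 the 8 genes lie apart from each other, *Prmt5* at chr14:54507182-54517470 (minus strand, 17 exons) and *Wdr77* at chr3:105959498-105969760 (plus strand, 10 exons). *Prmt1* is at chr7:44976755-44986420 (minus strand, 11 exons), *Prmt2* at chr10:76207226-76237865 (minus strand, 11 exons) and *Prmt3* at chr7:49778358-49858265 (plus strand, 16 exons). *Prmt6* spans chr3:110246104-110250999 over 2 listed transcripts (minus strand), and the transcript used here, with 1 exon, is at chr3:110248525-110250999. *Prmt7* is at chr8:106211054-106251694 (plus strand, 18 exons) and *Carm1* at chr9:21546894-21589467 (plus strand, 16 exons).

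The type I genes were lower and spread widely. *Prmt3*, whose product methylates the ribosomal protein RPS2, stood at 80.6 CPM at E2.5 and 58.0 CPM at E3.5. *Carm1*, a coactivator that methylates histones and splicing factors, was at 23.7 and 15.8 CPM. *Prmt1*, the main source of asymmetric dimethylarginine in most cells, was at 21.5 and 6.68 CPM. *Prmt6*, a nuclear enzyme that methylates histone H3, was at 16.4 and 14.3 CPM. *Prmt2* was at 2.17 and 1.26 CPM, the only one of the 8 below the median gene (3.99 and 6.38 CPM) at both stages. *Prmt1* came close to the median gene at E3.5, at the 50.6th percentile. *Prmt7*, the monomethylating enzyme, was at 32.8 CPM at E2.5 and 49.1 CPM at E3.5.

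The order of levels per kb of transcript at E2.5 was *Prmt5*, *Wdr77*, *Prmt3*, *Prmt1*, *Prmt7*, *Carm1*, *Prmt6* and *Prmt2*, the same from Salmon means and from summed exons. At E3.5 *Prmt1* moved from place 4 to place 7 in the Salmon means, behind *Prmt7*, *Carm1* and *Prmt6*, and to place 6 in the summed exons. With no value per embryo, neighbours in these orders cannot be set against their spread. By summed exons per kb, *Prmt5* had a mean of 7125 at E2.5 and 2510 at E3.5, *Wdr77* 4296 and 2185, *Prmt3* 1599 and 784, and *Prmt1* 956 and 233. *Prmt2* was lowest, at 48.2 and 21.4, against 57.2 and 78.8 for the median gene.

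**Figure D2:**
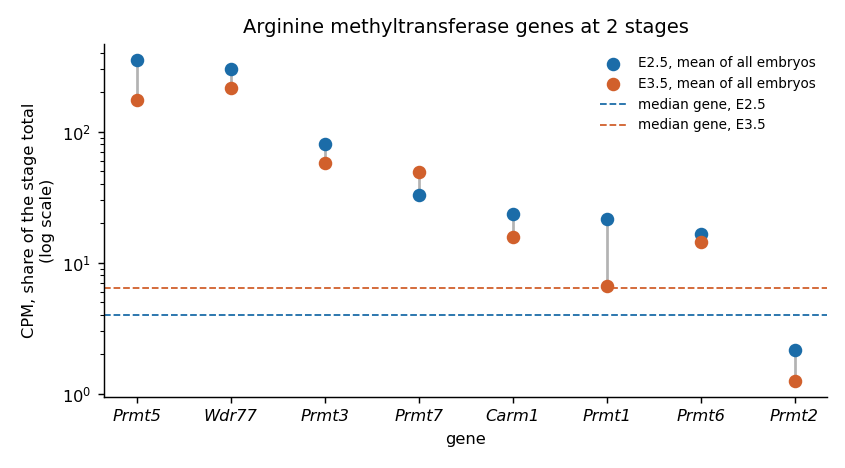
Level of each of the 8 genes in CPM, its share of the stage total (log scale), for E2.5 (blue) and E3.5 (orange), each point the authors' mean over all embryos of the stage. Dashed lines mark the median gene, at 3.99 and 6.38 CPM; *Prmt5* and *Wdr77* lie highest, *Prmt7* alone lies higher at E3.5, and *Prmt2* lies below both lines.

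Between the stages, 7 of the 8 genes took a smaller share of the total at E3.5 and 1 took a larger share, whereas 59.5% of 15557 genes took a larger one. The median log2 ratio of shares, E3.5 over E2.5, was -0.54 for the 8 genes and 0.34 for all genes. *Prmt1* had the largest difference, a share 3.22-fold smaller at E3.5, and *Prmt5* was 2.01-fold smaller. These were the 2 genes of 8 at least 2-fold smaller, against 19.1% of all genes, and 0 of 8 were at least 2-fold larger, against 32.8%. The log2 ratio was -0.79 for *Prmt2*, -0.59 for *Carm1*, -0.49 for *Wdr77*, -0.48 for *Prmt3* and -0.20 for *Prmt6*. *Prmt7* was 1.50-fold larger at E3.5, a log2 ratio of 0.58, or 0.24 when the stages were scaled by the median ratio over genes. That scaling also lowered the log2 ratios of the other 7 genes, to -2.03 for *Prmt1*, -1.35 for *Prmt5* and -1.13 for *Prmt2*. By it *Prmt2* was at least 2-fold smaller as well. From summed exons in place of Salmon means, *Prmt6* (0.14) and *Carm1* (0.16) changed sign, and the other 6 genes kept theirs. Such sums count a spliced read in each exon it touches, which does not raise the sum of *Prmt6*, with 1 exon. Scaled to the summed exon means of each stage, 15 exons of *Carm1* were lower at E3.5. Only its last exon, which overlaps exons of *Yipf2*, was higher.

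The difference between the stages was not even along the transcripts. Exon and intron means below are as deposited, from stages normalized separately. Scaled to the summed exon means of each stage, every log2 ratio of E3.5 over E2.5 would be 0.25 higher. That total counts a spliced read in each exon it touches, at 1.75 and 1.28 times the summed gene means at E2.5 and E3.5. The summed gene means were 1.15-fold higher at E3.5, so scaling by them would move the ratios in the opposite direction. The last exon of *Carm1* had a mean of 425 normalized counts at E2.5 and 809 at E3.5, while its first exon had 15.4 and 0.55. Exon 16 of *Carm1* overlaps exons of *Yipf2*, and in these unstranded libraries the reads of both genes cannot be told apart there. *Prmt3* showed the same direction, with 811 and 945 in exon 16 and 170 and 30.5 in exon 1. *Wdr77* had 3683 and 3632 in exon 10, a log2 ratio of -0.02 as deposited and 0.23 when scaled, and 1082 and 163 in exon 1. Exons 1 and 2 and introns 1 and 2 of *Wdr77* overlap exons of *Atp5f1*. In *Prmt5* the last exon had 2743 and 2146 and the first had 647 and 68.2. In *Prmt7* the 10 exons nearest the 5′ end had lower means at E3.5 and the other 8 had higher ones (9 and 9 when scaled), from 29.7 and 14.9 in exon 1 to 111 and 262 in exon 18. *Prmt1* differed: exon 1 had 71.8 and 17.9, and the last exon, 55.1 and 6.20, showed the greatest difference of its 11 exons.

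**Figure D3:**
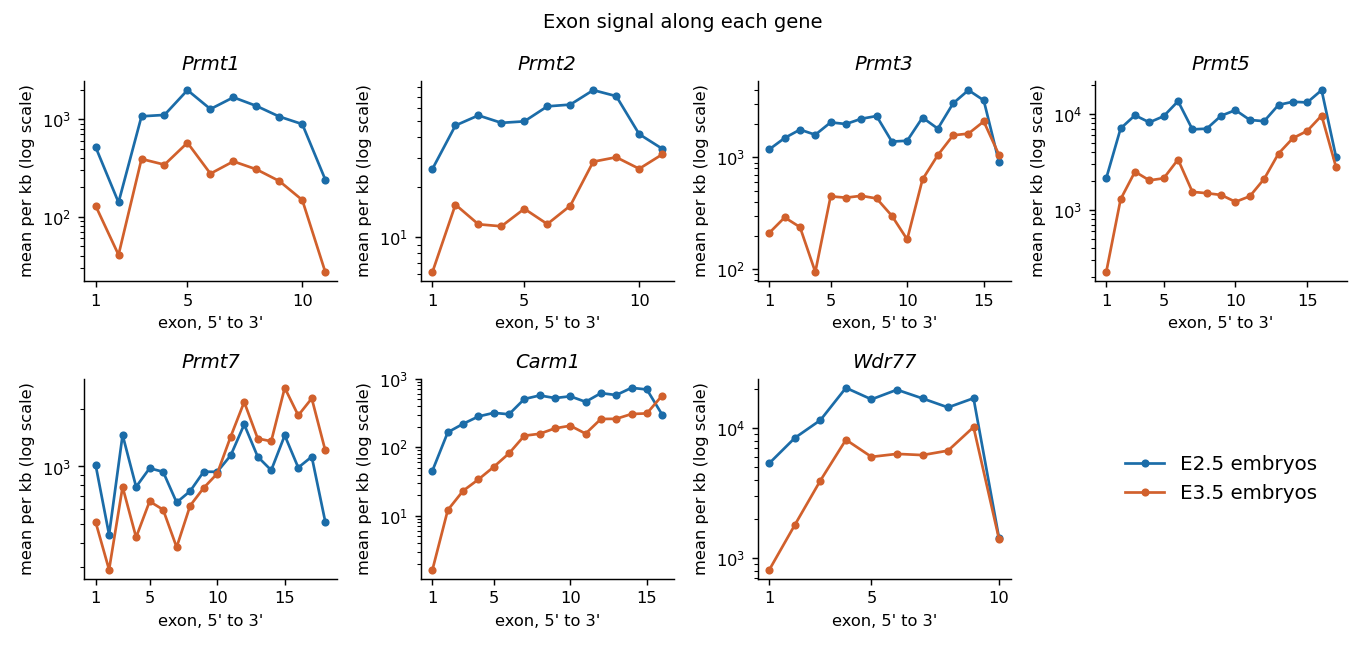
Mean normalized counts per kb (log scale) of each exon, numbered from the 5′ end, for 7 genes at E2.5 (blue) and E3.5 (orange), each point the authors' mean over all embryos of the stage. The lines draw together towards the 3′ end in *Prmt2*, *Prmt5* and *Wdr77*, cross in *Prmt7* and at the last exon of *Prmt3* (811 and 945 normalized counts) and of *Carm1* (425 and 809 normalized counts), and draw apart in *Prmt1*; *Prmt6*, whose coding transcript has a single exon, is left out.

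To compare genes, the exons of each transcript were split by order into a 5′ set and a 3′ set of equal number, leaving out the middle exon where the number was odd. The 5′ exons of *Carm1* held 25.1% of the signal of both sets at E2.5 and 5.37% at E3.5. For *Prmt3* the values were 40.0% and 15.5%, for *Prmt2* 34.4% and 19.4%, for *Prmt5* 39.8% and 24.0%, for *Wdr77* 42.6% and 24.4% (30.6% and 19.2% without the exons that overlap *Atp5f1*), and for *Prmt7* 46.6% and 26.8%. *Prmt1* went the other way, from 43.6% to 54.1%. The log2 change of the 5′ exons minus that of the 3′ exons was thus below 0 in 6 of 7 genes, against 88.7% of 9943 genes, and at most -1 in 6 of 7, against 52.6%. It was -2.56 for *Carm1* (6.73rd percentile of all genes), -1.86 for *Prmt3* and 0.61 for *Prmt1* (95.7th percentile). For *Prmt7*, *Wdr77*, *Prmt2* and *Prmt5* it lay between -1.25 and -1.07, close to the median gene at -1.05. The 3′ set of *Carm1* includes exon 16, which overlaps *Yipf2* and held 39.3% of its summed exon signal at E2.5 and 79.4% at E3.5. The *Carm1* value without that exon was not computed. A smaller share of signal in 5′ exons at E3.5 was therefore general in these libraries, and its part in the differences of level above was not tested.

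**Figure D4:**
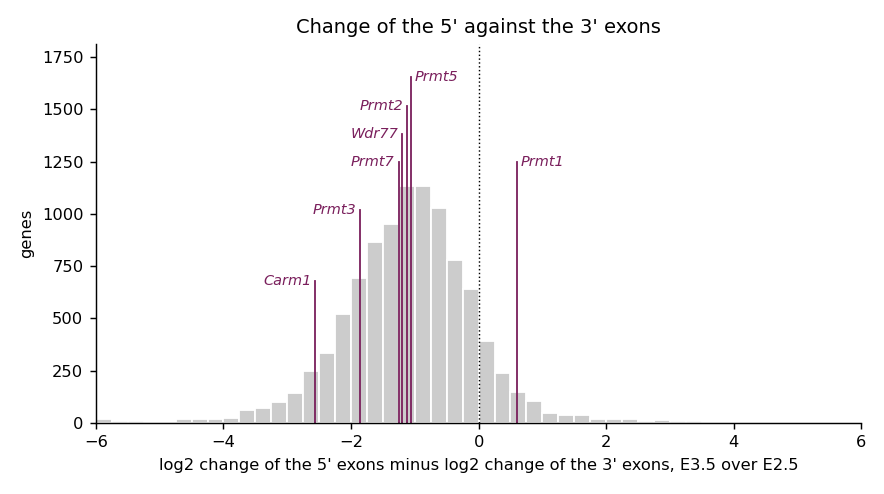
Histogram of 9943 genes (grey) by the log2 change of their 5′ exons minus that of their 3′ exons, E3.5 over E2.5, with values beyond 6 in either direction placed in the end bins and a dotted line at 0. Purple lines mark 7 genes. *Carm1*, whose 3′ set includes an exon that overlaps *Yipf2*, lies to the left at -2.56. *Prmt1* alone lies above 0, at 0.61, and 4 lie near the median of -1.05.

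Alternative exons could be read for 3 genes. Exon 2 of *Prmt1*, a 54-nt cassette exon, carried 17.6% of the signal per kb of its neighbours at E2.5 and 15.6% at E3.5, so it was low at both stages. Exon 2 of *Prmt5*, 119 nt long and absent from another listed transcript, carried 119% and 94.7%. Exon 15 of *Carm1*, 69 nt long, carried 135% and 71.4% of its neighbours, one of which is the long last exon that overlaps *Yipf2*. For *Prmt6*, the exon of the coding transcript had means of 324 and 299 normalized counts, and the separate downstream exon of its other transcript had 35.4 and 37.0.

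Intron signal, which counts reads of unspliced or intron-retaining RNA that the poly(A) libraries still hold, was low in these genes. At E2.5 it was below the median gene, 1.05% of the exon signal per kb, in all 7 genes with introns. It ran from 0.180% in *Prmt5*, 0.192% in *Prmt2*, 0.205% in *Prmt3* and 0.206% in *Prmt7* to 0.615% in *Wdr77*, 0.667% in *Prmt1* and 0.770% in *Carm1*. At E3.5 *Prmt1* was at 3.57%, above the median gene at 1.91%, *Carm1* was at 1.44%, and the other 5 lay between 0.588% and 0.740%. The ratio was higher at E3.5 in 7 of 7 genes, against 77.4% of all genes (78.2% where introns that touch a listed exon were left out). Its exon side counts a spliced read in each exon it touches, at 1.75 and 1.28 times the summed gene means at E2.5 and E3.5. A higher ratio at E3.5 therefore need not mean more intron reads, and the part of each side was not tested. The difference ran from 1.06-fold in *Wdr77* to 4.12-fold in *Prmt5* and 5.35-fold in *Prmt1*. Over introns that touch no listed exon of any gene it was 1.19-fold in *Wdr77*, 6.02-fold in *Prmt1* and, for *Prmt2*, 4.72-fold in place of 3.06-fold. In *Prmt1* the summed exons were at 1303 and 317 normalized counts and the summed introns at 51.7 and 67.4. Intron 5 had 22.2 and 46.1, and without it the summed introns were at 29.5 and 21.3, with a ratio to exons still 2.96-fold higher at E3.5. *Prmt7* had higher means at E3.5 in all 17 introns, also when scaled. *Wdr77* had lower means in all 9 as deposited and in 8 of 9 when scaled. The introns that hold the nonamer were also measured: *Prmt3* intron 13 had 40.7 and 79.6 normalized counts, *Prmt3* intron 15 had 29.8 and 92.6, *Prmt7* intron 4 had 9.40 and 55.6, and *Carm1* intron 4 had 2.05 and 5.86.

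**Figure D5:**
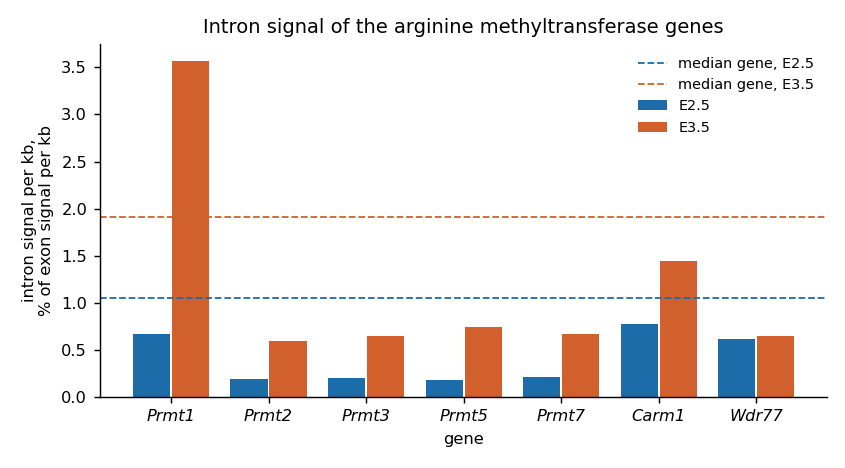
Intron signal per kb as a percentage of exon signal per kb, for 7 genes at E2.5 (blue bars) and E3.5 (orange bars), from the authors' means over all embryos; dashed lines mark the median gene at 1.05% and 1.91%. The bar of *Prmt1* at E3.5, 3.57%, is the only one above the line of its stage.

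Other genes of arginine methylation were measured in the same tables. Of 4 further enzymes, *Prmt9*, the other source of symmetric dimethylarginine, was at 46.1 CPM at E2.5 and 30.9 at E3.5. *Ndufaf7*, which acts in mitochondria, was at 67.2 and 38.8 CPM. *Mettl23*, which acts on histone H3, was at 12.8 and 25.5 CPM. *Prmt8*, a brain enzyme, had means under 1 normalized count. The median log2 ratio of this list was -0.69, with 1 of 4 larger at E3.5. Adaptors that direct PRMT5 differed in direction: *Clns1a*, which brings Sm proteins to the enzyme, was at 636 and 187 CPM, *Riok1*, which brings nucleolin, at 47.4 and 34.9, and *Coprs*, which brings histone H4, at 37.7 and 79.1. The median log2 ratio of these 3 was -0.44, and 1 of 3 was larger at E3.5.

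Among genes for substrates, 2 of 4 Sm genes had larger shares at E3.5, with a median log2 ratio of -0.20. *Snrpb* was at 715 and 473 CPM and *Snrpd1* at 124 and 228. Of 12 other substrates, 6 were larger and 6 smaller (median log2 ratio -0.08). *Pabpc1*, a poly(A) binding protein and CARM1 substrate, was at 423 and 1305 CPM, and *Hnrnpa1*, an hnRNP protein methylated by PRMT1, at 661 and 263. Of 4 genes for Tudor domain proteins, which bind methylated arginines or resemble those that do, 3 were larger at E3.5 (median log2 ratio 0.44). *Smn1*, whose product binds the methylated Sm proteins, was at 57.9 and 23.6 CPM and was the exception.

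All 4 genes of the methyl donor and its products differed by over 2-fold in share between the stages, in both directions. *Mat2a*, which encodes the SAM synthetase that METTL16 is known to control, was at 1233 CPM at E2.5 and 172 at E3.5, a 7.18-fold smaller share. The mean includes KO embryos, and it cannot be divided by genotype here. *Mat2b*, its regulatory subunit, was at 77.4 and 27.6 CPM. *Ahcy*, which removes the product S-adenosylhomocysteine, was at 58.4 and 206 CPM, and *Mtap*, which clears methylthioadenosine, a product known to inhibit PRMT5, at 4.04 and 36.1. The median log2 ratio of these 4 was 0.17, with 2 of 4 larger. Of the hydrolases that break down free dimethylarginine, *Ddah1* was at 106 and 320 CPM and *Ddah2* at 27.5 and 8.06 (median log2 ratio -0.08, with 1 of 2 larger at E3.5).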

How the data were processed

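Single embryos were sequenced by the authors with a Smart-seq2 protocol on poly(A) RNA, without strand. The signal deposited for genes is the mean over all embryos of a stage of Salmon 0.7.2 counts, which the authors summed to RefSeq genes on mm10 and divided by DESeq2 1.18.1 size factors. Exon and intron signal came from featureCounts after STAR, in the same form, by the authors. These tables give no depth per embryo, and none was used here. The remaining columns of these tables, the authors' genotype fold changes and adjusted p-values, were not used. For the in vitro libraries, the signal as deposited by the authors is reads per RNAfold structure divided by size factors. The fold changes and p-values the authors deposited there were not used either.

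Each stage was normalized separately, so levels were divided by the summed means of the stage and set to a total of 1000000 (CPM). Exons and introns came from 1 RefSeq transcript per gene. A coding transcript was taken where any was listed, and among these the one with the largest summed exon mean over both stages. Exon sums count a spliced read in each exon it touches, and they were 1.75 and 1.28 times the summed gene means at E2.5 and E3.5. Introns were shortened by 10 nt at each end, and a summed exon mean of at least 10 was required for intron ratios. The comparison of 5′ and 3′ exons required at least 4 exons and summed exons of at least 10 at each stage. Each set had to be above 0 at each stage, and only the largest set value had to reach 10. The 5′ set of *Prmt2* was at 8.48 at E3.5. Coordinates are 1-based on mm10, and sequences are from the RefSeq assembly GRCm38.p6, on which 99.0% of 187135 introns began with GT and ended with AG. Windows were folded with RNAfold 2.7.2.

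Both m6A-IP libraries were set against both inputs in R 4.3.3 by limma 3.58.1, on log2(value + 5) and with a mean-variance trend. Nothing in the labels says that the reactions are more than technical repeats. The fit was tested on simulated data, where it missed most of the smaller differences that were set, so a structure without a call may still differ. Input and m6A-IP of a reaction number come from 1 reaction by the study's methods, so the numbers pair the libraries. Their deviations over 1243 abundant structures correlated at -0.015. The remaining steps were run in Python 3.11.15 (pandas 2.3.3, numpy 2.4.6, matplotlib 3.10.9).

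The genes named are all 8 members and genes of the lists described. Members and lists were chosen with earlier results of these data known. Alternatives were other filters, scalings, pseudocounts, exon sums, the antisense strand, the nonamer with G7A, a replicate block and each in vitro library left out.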

Additional observations from a re-analysis of the deposited data

How the results depend on the processing

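The counts over the 8 genes of levels above the median gene, of exon signal per kb and of nonamer matches stayed within 1.5 times their value under each alternative run. The nonamer with G7A was in 4 genes too, of which *Carm1*, *Prmt3* and *Prmt7* also held the nonamer itself. From summed exons, 3 genes in place of 1 had a larger share at E3.5, among them *Carm1*, whose last exon overlaps *Yipf2*. With a summed exon mean of at least 100 required of all genes, 1 gene in place of 0 at E2.5 and 2 in place of 1 at E3.5 had an intron ratio above the median gene. Introns that touch no listed exon, an alternative chosen after seeing the data, left both counts as they were. The scaling of exon and intron means, the *Prmt1* ratio without intron 5 and the *Wdr77* shares without overlapping exons were also chosen after seeing the data. In vitro, library totals gave 8299 enriched structures. Leaving out 1 library gave 855 to 11188 enriched and 1994 to 20642 depleted structures, where the lone library of a group is assumed to vary like the others. With the replicate block, which pairs libraries of a reaction, 4282 structures were enriched and 10863 depleted, and of the 5 structures described only that of *Prmt7* intron 4 lost its call. The structure of *Carm1* intron 4 ranged from -0.13 to 0.28 on the log2 scale when 1 library was left out. The cause of these differences was not tested. No paired analysis was possible for the embryos because no value per embryo was used. The pooled means give no error for any embryo value, and the shallow m6A-IP library of reaction 12, with 843 structures at 0, limits the in vitro fold changes.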
